A study of Homo sapiens with 6 samples.

Results

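The genes described are 36 genes of protein folding, stress sensing, protein entry and protein degradation at the endoplasmic reticulum (ER), out of 59074 genes listed for the series. They were chosen by symbol from the known machinery of the ER, with earlier results of these data known. All 36 were listed and all 36 had a mean of at least 1 CPM (reads of a gene scaled to the depth of the library), so that each was among the 14294 genes tested. By role they are 11 chaperones and cochaperones, 4 protein disulfide isomerases, 4 genes of stress sensing (the 3 sensors and XBP1), 6 genes of ER-associated degradation, 7 genes of the translocon and 4 genes of the signal peptidase.

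Secreted and membrane proteins enter the ER through the translocon, lose their signal peptide by signal peptidase, and are folded by chaperones and disulfide isomerases. When unfolded proteins accumulate, the membrane sensors ATF6, IRE1 (encoded by ERN1) and PERK (encoded by EIF2AK3) start the unfolded protein response, which raises the transcription of chaperones and of the degradation machinery, in part through the transcription factor XBP1. Glioma cells secrete matrix proteins and growth factors, and this machinery serves their secretory traffic.

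RNA was sequenced from U251, LN-229 and T98G, established cell lines of glioblastoma, each transiently transfected with non-target siPOOLs (pools of siRNAs, siControl) or with siPOOLs against the long non-coding RNA HOTAIRM1 (siHOTAIRM1), with cells harvested at 72 h. The libraries of LN-229 are titled LNT229, and the line is named here by its cell line entry; whether the titles mean another line was not tested. There was 1 library per cell line and condition, 6 in all, so the 3 cell lines were the replicates of the knock-down, and no test was possible within a cell line. The depth under siControl and under siHOTAIRM1 was 69.1 and 72.7 M reads for T98G, 88.3 and 104 M reads for LN-229, and 52.3 and 101 M reads for U251. Since nothing says how many cultures lay behind a library, p-values measure the spread between these libraries alone, which may in part be technical.

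Of the 7 glial and glioma markers, VIM was at 254 to 1794 CPM and CD44 at 304 to 819 CPM. NES was at 329 to 507 CPM in LN-229 and U251 and at 0.956 and 0.866 CPM in T98G, and SOX2 and S100B were at or near 0 in T98G. GFAP was at 42.5 and 20.8 CPM (siControl and siHOTAIRM1) in U251 and near 0 in the other lines, at most 0.317 CPM, and OLIG2 was at most 1.69 CPM in any library and at or near 0 in U251. The leukocyte genes PTPRC, CD14 and CD3E together reached at most 0.290 CPM in any library, and EPCAM, CDH1 and RBFOX3 reached at most 0.248, 0.0139 and 0.00998 CPM. Of the other lists, the 3 endothelial genes summed to 0.408 to 3.08 CPM. The 4 epithelial genes summed to 3.68 to 97.3 CPM, nearly all of it KRT18, and the 3 neuronal genes to 6.44 to 25.5 CPM, most of it SYT1 and SNAP25. In bulk RNA, fewer cells with a transcript and less of it per cell cannot be told apart.

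HOTAIRM1, the target, was at 1.99 CPM (siControl) and 0.952 CPM (siHOTAIRM1) in LN-229, at 3.49 and 2.15 CPM in T98G, and at 1.27 and 0.623 CPM in U251. It was lower in the siHOTAIRM1 library of each of the 3 cell lines, with 95% Wilson intervals that did not overlap. The mean change of log2(CPM + 1) was -0.54 (SE 0.12, limma adjusted p = 0.0146, lower in 3 of 3 cell lines), and on this scale the change of such a low gene is understated. Under the alternatives its adjusted p ran from 0.00302 to 1, and the call was lost under median centring (change -0.46, adjusted p = 0.17), under rescaling (-0.56, 0.204) and without LN-229 (-0.50, 0.0711) or T98G (-0.55, 0.435), with a change of similar size in each.

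The promoters of the stress-induced genes carry known short elements. The matches of ERSE and ERSE-II are shown because these 2 elements were found in chaperone genes and in no gene of the translocon or signal peptidase with a window. In the RefSeq promoter windows (GRCh38.p14), 250 bases before each annotated start were searched on both strands. An entry was found for 33 of the 36 genes; DERL1, PDIA3 and SPCS1 are named only. The ER stress response element (ERSE, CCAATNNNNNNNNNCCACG, known as a binding site of ATF6 together with NF-Y) was found in 7 of the 33, against 25 of 27305 genes with a window (0.0916%). Of the genes tested, 9458 had a window and 15 of these held ERSE (0.159%). The genes were chosen from the known ER machinery, and the elements are known ones of stress-induced genes. A share above that of all genes was thus set in part by these choices and is no test. The carriers among the 33 were CALR, CANX, CRELD2, HSP90B1, HSPA5, PDIA6 and XBP1. The ERSE matches are given 5′ to 3′ on the strand of the motif, with the fixed bases in capitals and 5 bases on each side.
HSPA5: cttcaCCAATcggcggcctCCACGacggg
HSP90B1, first match: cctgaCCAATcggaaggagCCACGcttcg
HSP90B1, second match: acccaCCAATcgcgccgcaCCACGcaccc
CALR: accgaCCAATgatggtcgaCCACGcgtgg
CANX: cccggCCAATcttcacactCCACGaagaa
PDIA6: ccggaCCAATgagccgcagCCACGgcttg
CRELD2: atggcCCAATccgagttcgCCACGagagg
XBP1: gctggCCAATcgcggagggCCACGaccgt

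The match of HSPA5 lies at chr9:125241386-125241414 on the minus strand, 47 bases before the start, and that of XBP1 at chr22:28800598-28800626 on the minus strand, 33 bases before the start. Those of HSP90B1 lie at chr12:103930211-103930239 on the plus strand and chr12:103930316-103930344 on the minus strand, that of CALR at chr19:12938379-12938407 on the minus strand, and that of CANX at chr5:179698773-179698801 on the plus strand. Those of PDIA6 and CRELD2 lie on the minus strand at chr2:10812848-10812876 and chr22:49918549-49918577. The longer gene models of GENCODE v44 start upstream of the matches of HSP90B1, CANX, PDIA6 and CRELD2, which therefore lie inside the annotated genes.

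ERSE-II (ATTGG, any 1 base, then CCACG) was found in 3 of the 33 genes, against 18 of 27305 (0.0659%), and HYOU1 held it at 2 places. None of the 3 also held ERSE. Of the tested genes with a window, 13 of 9458 held ERSE-II (0.137%). The matches are written in the same way.
HERPUD1: cgccgATTGGgCCACGttggg
HYOU1, first match: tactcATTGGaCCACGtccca
HYOU1, second match: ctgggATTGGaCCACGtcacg
SDF2L1: ttttgATTGGtCCACGcttcc

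With the 5 bases on each side included, they lie at chr16:56932020-56932040 (HERPUD1, plus strand), chr11:119057269-119057289 and chr11:119057375-119057395 (HYOU1, both on the plus strand, opposite to the gene) and chr22:21642109-21642129 (SDF2L1, minus strand). No gene of the translocon (0 of 7) or of the signal peptidase (0 of 3) held ERSE or ERSE-II in this window, against 7 of 11 chaperones and cochaperones (5 with ERSE and 2 with ERSE-II). The core of the unfolded protein response element, TGACGTG, was found in HYOU1, SSR3 and SSR4, against 561 of 27305 genes (2.05%), and in HYOU1 it overlapped the second ERSE-II match. TGATGNAAT, the element known for ATF4, was found in 0 of the 33 and in 298 of 27305 genes (1.09%). Of the 9458 tested genes with a window, 278 held TGACGTG (2.94%) and 63 held TGATGNAAT (0.666%). A match describes these letters and is not a test of binding.

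Levels of different genes were compared as CPM per kilobase of transcript, as a mean of the 6 libraries. CALR, the soluble calcium-binding lectin chaperone, was highest at 311 CPM per kilobase, followed by HSP90B1 (the ER form of HSP90, 260), P4HB (a disulfide isomerase, 191), SSR2 (a subunit of the translocon-associated protein complex, 166) and CANX (the membrane-bound lectin chaperone, 162). The ranges of these over the libraries overlapped in part, from 120 to 247 CPM per kilobase for CANX and from 284 to 354 for CALR. ERN1 was lowest at 0.721 CPM per kilobase, 432-fold below CALR, followed by SYVN1 (4.61, the ubiquitin ligase of ER-associated degradation), EIF2AK3 (5.35) and DNAJB9 (6.10, an HSPA5 cochaperone).

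**Figure D1:**
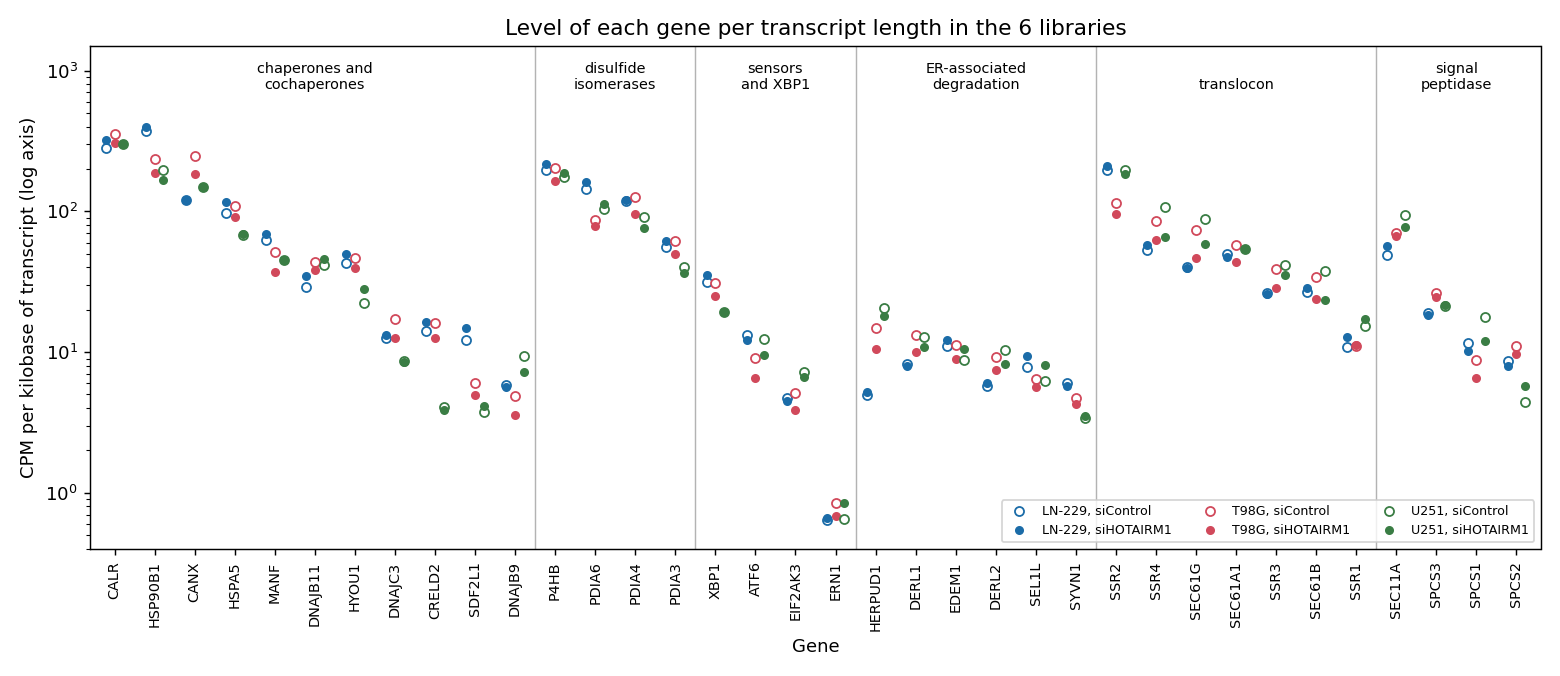
Level of each of the 36 genes in CPM per kilobase of transcript (log axis), by role. Open points are siControl and filled points siHOTAIRM1 libraries of LN-229 (blue), T98G (red) and U251 (green); ERN1 lies below 1 in all 6 libraries, and the disulfide isomerases lie above 36.

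By role, the median level was 110 CPM per kilobase for the 4 disulfide isomerases, 51.2 for the translocon, 38.7 for the chaperones and cochaperones, 16.5 for the signal peptidase, 9.14 for ER-associated degradation and 7.92 for the sensors and XBP1. The chaperones were the most uneven group, from 6.10 (DNAJB9) to 311 (CALR) CPM per kilobase. Levels within ER-associated degradation spanned a narrow range, from 4.61 (SYVN1) to 12.3 (HERPUD1). Levels of 4 genes are uncertain by limits of a pseudogene at 10% of the gene's level or 40% of exon bases shared. PDIA3 and SPCS2 have listed pseudogenes at 51.4% (PDIA3P1) and 87.2% (SPCS2P4) of their own level. SPCS1 and PDIA6 share 71.4% and 45.3% of their exon bases with the genes NEK4 and ATP6V1C2 in libraries that do not mark the strand. Other genes share less, such as DNAJB11 (27.5%) and SSR3 (25.4%), and their reads may also be affected. The level of SPCS1 per kilobase, and with it the median of the signal peptidase, also depends on the transcript chosen (here 3786 bases).

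The 3 cell lines were compared first. With limma's moderated F test over the cell lines, 27 of the 36 genes differed at an adjusted p under 0.05 (75%), against 81.0% of all genes tested, so differences between the lines were no more common here than elsewhere. Past this threshold with line means at least 1 apart on the log2 scale were 4 of the 36 (11.1%), against 41.7% of all genes tested. The 4 were HERPUD1, CRELD2, SDF2L1 and HSP90B1. With single libraries left out, 18 (without the siControl library of U251) to 25 genes differed. With each library rescaled to the sum of its listed genes, 26 differed. Levels and differences of lines are given below as deposited. The listed genes held 67.2 and 55.9% of the CPM scale in U251 (siControl and siHOTAIRM1), 50.2 and 42.9% in T98G, and 47.0 and 48.5% in LN-229. Rescaling therefore lowers U251 beside the other lines.

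HERPUD1, a membrane protein that brings substrates to the degradation complex, was at 14.2 and 14.9 CPM (siControl and siHOTAIRM1) in LN-229, 42.3 and 30.1 CPM in T98G, and 58.3 and 51.5 CPM in U251. Both libraries of LN-229 lay below all others, and those of U251 above all others. The difference of LN-229 minus U251 was -1.84 on the log2 scale (limma adjusted p = 3.62e-11), and that of T98G minus U251 was -0.60 (adjusted p = 0.00345). Both are smaller after rescaling. CRELD2, a disulfide isomerase-like protein of the ER, was at 20.02 and 23.3 CPM in LN-229, 23.2 and 17.9 CPM in T98G, and 5.86 and 5.53 CPM in U251. It was low in U251 alone, 1.76 below LN-229 on the log2 scale, with no overlap, whereas LN-229 and T98G overlapped.

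SDF2L1, a component of the HSPA5 cochaperone complexes, was at 10.1 and 12.3 CPM in LN-229, 5.00 and 4.08 CPM in T98G, and 3.10 and 3.44 CPM in U251. LN-229 lay above both other lines, by 1.13 over T98G (adjusted p = 1.48e-06) and by 1.51 over U251 on the log2 scale. HSP90B1 was at 1038 and 1108 CPM in LN-229, 661 and 522 CPM in T98G, and 544 and 464 CPM in U251. It too was highest in both libraries of LN-229 (0.87 above T98G and 1.09 above U251 on the log2 scale), while T98G and U251 overlapped.

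**Figure D2:**
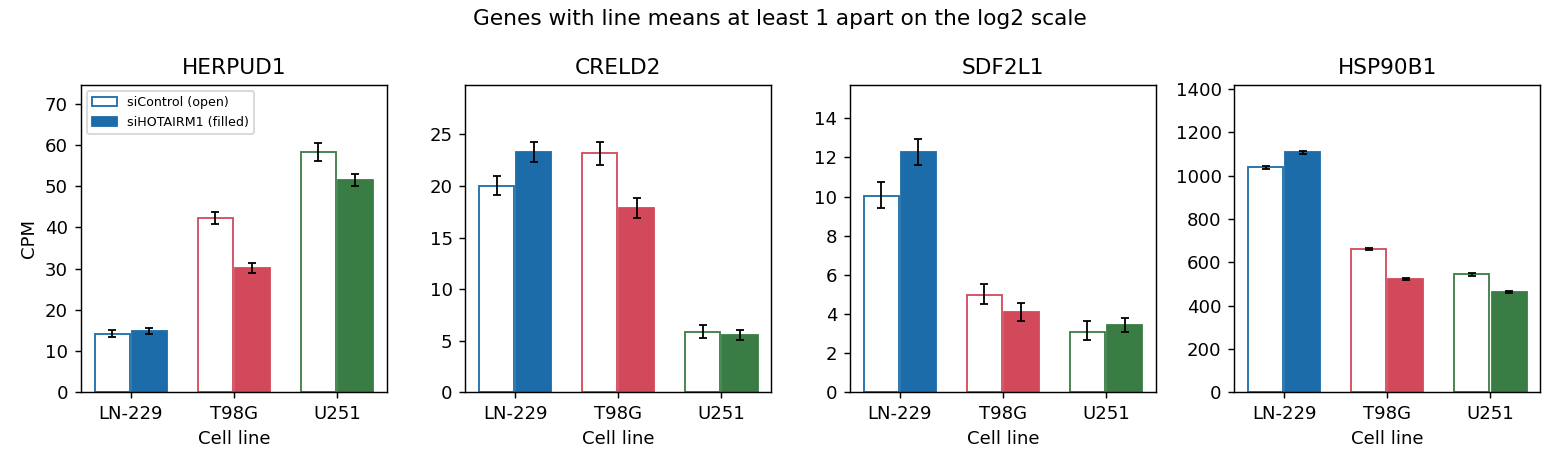
CPM of HERPUD1, CRELD2, SDF2L1 and HSP90B1 in the siControl (open bars) and siHOTAIRM1 (filled bars) library of each cell line, with 95% Wilson intervals of the reads (counting error only). HERPUD1 is lowest in LN-229, CRELD2 is lowest in U251, and SDF2L1 and HSP90B1 are highest in LN-229.

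Stress-induced genes therefore did not share an order of the lines: HERPUD1 was lowest where SDF2L1 and HSP90B1 were highest. The 9 genes that did not pass the F test were CALR, DNAJB11, P4HB, PDIA4, ERN1, EDEM1, SEC61A1, SEC61B and SPCS3. For the pore subunit SEC61A1 the highest and lowest line means were 0.15 apart on the log2 scale, for SEC61B 0.11 and for CALR 0.12. This does not show that the lines are equal for these genes. Of the 27 genes that differed, 13 were highest in LN-229, 11 in U251 and 3 in T98G as deposited, a tally that was not repeated after rescaling.

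The change with the knock-down was tested with the cell line as block. Of the 36 genes, 0 passed an adjusted p of 0.05 (limma), against 286 of 14294 genes tested (2.0%). At an unadjusted p under 0.05 there were 5 of the 36 (13.9%), all lower in siHOTAIRM1, against 18.3% of all genes tested, with 14.2% lower and 4.19% higher. A gene-by-gene paired t-statistic gave 0 of the 36 after adjustment and 0 before it. The 5 were SEC61G, SPCS1, SEC61B, SSR4 and ATF6, with limma adjusted p-values of 0.13, 0.136, 0.204, 0.227 and 0.237. Mean changes of the 36 ran from -0.41 to 0.15 on the log2 scale, with standard errors of 0.14 to 0.21, and their median was -0.09 beside -0.07 for all genes tested. Of all genes tested, 270 passed without LN-229, 149 without U251 and 0 without T98G.

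Changes within a cell line are given without a test, and they have to be read against a shift of the whole library. Over all genes tested, the median change was near 0 in LN-229 (0.01) and U251 (-0.03) and lay at -0.19 in T98G. When each library was rescaled so that its listed genes filled the whole CPM scale, changes moved by about -0.05 (LN-229), 0.23 (T98G) and 0.27 (U251), because the listed genes held 50.2 and 42.9% of that scale in T98G and 67.2 and 55.9% in U251 (siControl and siHOTAIRM1). A small change as deposited can thus have the other sign after rescaling. The most abundant listed gene was RN7SL1, the RNA of the signal recognition particle, which held 9.01% of the listed sum in the siControl library of U251 and 4.99% in its siHOTAIRM1 library. Without the 604 RN7SL genes in the sum, a setting chosen after the data were seen, changes moved by -0.03 (LN-229), 0.22 (T98G) and 0.19 (U251). In U251, HSP90B1 (-0.04), DERL1 (-0.05), SSR3 (-0.05) and the translocon median (-0.05) then stayed lower. They are given below as higher after rescaling with RN7SL in the sum. In T98G, CALR (-0.0034) also stayed lower.

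In LN-229, 25 of the 36 genes were higher in the siHOTAIRM1 library and 11 were lower (30.6%), against 46.3% of all genes lower. In T98G, 35 of 36 were lower (97.2%), against 79.3% of all genes, and after rescaling 27 were lower (75%), against 50.4% of all genes. In U251, 21 of 36 were lower as deposited (58.3%), against 53.2% of all genes, and 9 were lower after rescaling (25.0%), against 30.9% of all genes. Set against the all-gene median, the median change of the 36 lay at 0.07 (LN-229), -0.12 (T98G) and 0.01 (U251). The 95% Wilson intervals of the siControl and siHOTAIRM1 levels did not overlap for 23 of the 36 genes in LN-229 (63.9%, against 35.0% of all genes tested), 24 in U251 (66.7%, against 60.4%) and 32 in T98G (88.9%, against 54.8%). These intervals cover counting error only and are narrower for genes at higher levels, and the part of the level in these shares was not tested.

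**Figure D3:**
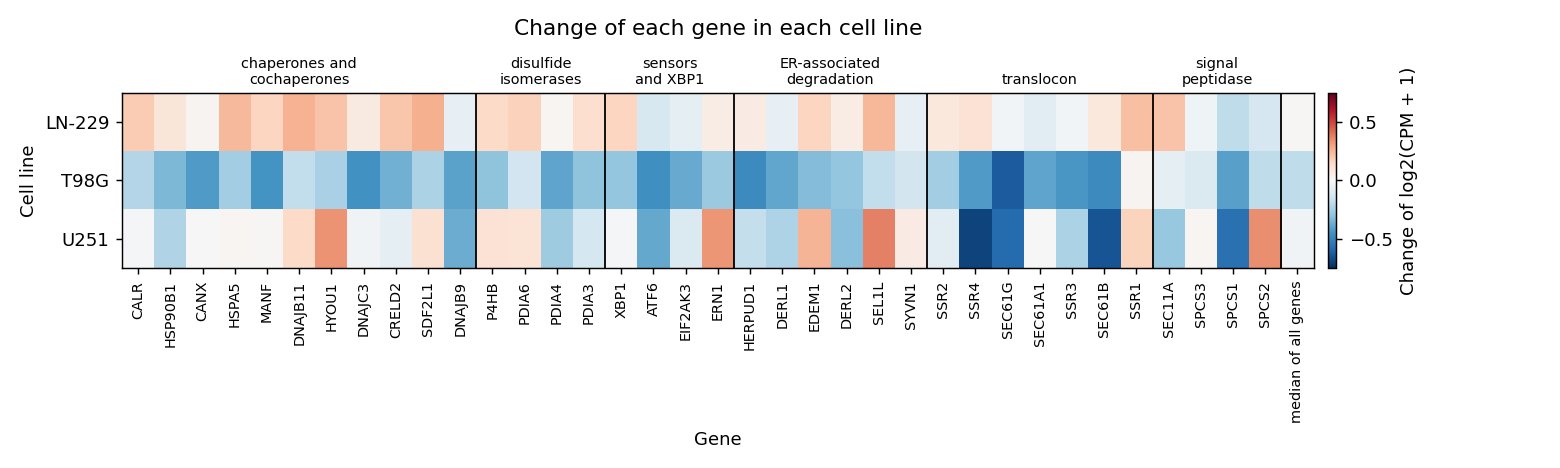
Change of log2(CPM + 1), siHOTAIRM1 minus siControl, of each gene (columns, by role) in each cell line (rows), as deposited, with the median of all genes tested in the last column. LN-229 is mostly red (25 of 36 higher), T98G mostly blue (35 of 36 lower), and in U251 SSR4, SEC61B, SEC61G and SPCS1 are the darkest blue.

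Only a few genes had the same direction in all 3 cell lines. As deposited, 8 of the 36 were lower in all 3 (22.2%, against 28.1% of all genes tested), and 1 was higher in all 3 (against 11.4%), namely SSR1. After rescaling, 5 were lower in all 3 (13.9%, against 16.9%) and 5 were higher in all 3 (13.9%, against 24.0%). DNAJB9, ATF6, SEC61G and SPCS1 were lower in all 3 under both scalings, and SSR1 was higher in all 3 under both. The Wilson intervals of siControl and siHOTAIRM1 overlapped for DNAJB9 and SEC61G in LN-229 and for SSR1 in T98G, so these directions lie within counting error. These shares lay near or below those of all genes.

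The sensors were described first. ATF6, the sensor that is cut in the Golgi to release a transcription factor, was at 98.6 and 90.7 CPM (siControl and siHOTAIRM1) in LN-229, 68.1 and 49.2 CPM in T98G, and 92.7 and 70.6 CPM in U251. It was lower in siHOTAIRM1 in each of the 3 cell lines, also after rescaling, but the siControl and siHOTAIRM1 groups overlapped across lines. The mean change was -0.32 (SE 0.15, limma adjusted p = 0.237).

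EIF2AK3, the kinase PERK, which slows translation under stress, was at 21.3 and 20.2 CPM in LN-229, 23.3 and 17.7 CPM in T98G, and 32.8 and 30.4 CPM in U251. As deposited, U251 was high in both conditions (log2 difference of -0.58 for LN-229 minus U251 and -0.61 for T98G minus U251, limma adjusted p = 0.00414 and 0.00255). Both differences are smaller after rescaling, since the listed genes held more of the CPM scale in U251. With the knock-down, EIF2AK3 was lower in the 3 lines as deposited, at -0.07, -0.38 and -0.11, with overlapping intervals in LN-229 and U251. In U251 the change turned to 0.15 after rescaling. ERN1, the kinase and nuclease IRE1, which splices XBP1 RNA, was at 5.02 and 5.26 CPM in LN-229, 6.72 and 5.38 CPM in T98G, and 5.11 and 6.68 CPM in U251. It was higher in siHOTAIRM1 in LN-229 and U251 and lower in T98G under both scalings, and in LN-229 the intervals overlapped.

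XBP1 was at 56.3 and 63.1 CPM in LN-229, 55.5 and 45.1 CPM in T98G, and 34.5 and 34.2 CPM in U251. It was low in both libraries of U251 (0.78 below LN-229 and 0.53 below T98G on the log2 scale), the reverse of EIF2AK3. CPM per gene does not separate the spliced from the unspliced XBP1 RNA, so the activity of IRE1 was not measured. Set against the all-gene median, the 4 genes of stress sensing had a median change of -0.02 (LN-229), -0.15 (T98G) and -0.03 (U251).

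Among the chaperones, HSPA5 (BiP, the ER form of HSP70, which also holds the sensors inactive) was at 383 and 454 CPM in LN-229, 430.2 and 359 CPM in T98G, and 269 and 271 CPM in U251. It was higher in siHOTAIRM1 in LN-229, lower in T98G and nearly level in U251, where the change of 0.01 became 0.28 after rescaling. The 2 libraries of U251 lay below the other 4. HSP90B1, given above by line, changed by 0.09 (LN-229), -0.34 (T98G) and -0.23 (U251), the last turning to 0.04 after rescaling.

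CALR was at 540 and 615 CPM in LN-229, 672 and 578 CPM in T98G, and 575 and 571 CPM in U251. All 6 values lay close together, and the groups overlapped. In LN-229, 10 of the 11 chaperones and cochaperones were higher in siHOTAIRM1 (9 after rescaling). In T98G all 11 were lower as deposited, 10 of them below the median of all genes, and 9 were lower after rescaling. The group's median change was 0.19 (LN-229), -0.34 (T98G) and 0.0025 (U251), or 0.14, -0.11 and 0.27 after rescaling. DNAJB9 was the exception in LN-229, with -0.06, and its mean change over the lines was -0.28 (SE 0.14, limma adjusted p = 0.296). The largest changes of the group in LN-229 were those of SDF2L1 (0.26) and DNAJB11 (0.26, a cochaperone of HSPA5), and in U251 those of DNAJB9 (-0.37) and HYOU1 (0.34, the nucleotide exchange factor of HSPA5).

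P4HB, the best known disulfide isomerase and a subunit of prolyl 4-hydroxylase, was at 480 and 529 CPM in LN-229, 496 and 402 CPM in T98G, and 426 and 460 CPM in U251. It was higher in siHOTAIRM1 in LN-229 and U251 and lower in T98G under both scalings. Of the 4 isomerases, 4 were higher in LN-229, 2 in U251 and 0 in T98G as deposited, and 3, 3 and 1 after rescaling. PDIA4 was the lowest in each of the 3 lines, at 0.01, -0.39 and -0.27. With the all-gene median subtracted, the group stood at 0.12 (LN-229), -0.11 (T98G) and 0.01 (U251).

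In ER-associated degradation, SEL1L, the adaptor of the ubiquitin ligase SYVN1, had the highest mean change of all 36 genes, 0.15 (SE 0.15, limma adjusted p = 0.626). Its changes were 0.25 (LN-229), -0.18 (T98G) and 0.38 (U251), with T98G at 0.04 after rescaling. EDEM1, which trims mannose from misfolded glycoproteins, followed the same order of lines at 0.16, -0.32 and 0.25, and was lower in T98G under both scalings. The derlins, membrane proteins of the exit channel, were lower in T98G and U251, with -0.39 and -0.23 for DERL1 and -0.29 and -0.31 for DERL2; of these, DERL1 in U251 turned to 0.03 after rescaling. HERPUD1 changed by 0.06, -0.48 and -0.18 in LN-229, T98G and U251, and the last turned to 0.09. SYVN1 changed by at most 0.14 in either direction as deposited.

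The translocon was split by its subunits. SEC61A1, the channel-forming subunit, was at 179 and 169 CPM in LN-229, 207 and 157 CPM in T98G, and 193 and 193 CPM in U251. It was lower in T98G and level in U251 as deposited (-0.00057), which became 0.26 after rescaling. SEC61B, a small tail-anchored subunit, was at 15.1 and 16.0 CPM in LN-229, 19.2 and 13.5 CPM in T98G, and 21.4 and 13.3 CPM in U251. Its lowest values were the siHOTAIRM1 libraries of T98G and U251, and its highest were their siControl libraries.

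SEC61G, the other small subunit, was at 17.2 and 16.9 CPM in LN-229, 31.3 and 19.95 CPM in T98G, and 37.6 and 24.9 CPM in U251. It was lower in siHOTAIRM1 in T98G and U251, with LN-229 low in both conditions. The mean change was -0.41 for SEC61G (SE 0.15, limma adjusted p = 0.13, lower in 3 of 3 cell lines) and -0.35 for SEC61B (SE 0.15, adjusted p = 0.204, lower in 2 of 3). For both genes the intervals overlapped in LN-229. Under rescaling, both remained lower in T98G (-0.41 and -0.27) and U251 (-0.32 and -0.41).

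The translocon-associated protein complex, which assists the entry of some signal sequences, held genes of opposite direction in U251. SSR4 changed by 0.11 (LN-229), -0.43 (T98G) and -0.70 (U251), and SSR1 by 0.23, 0.02 and 0.17. The difference of SSR1 and SSR4 within a library, which does not depend on the scaling, was -2.28 and -2.17 (siControl and siHOTAIRM1, log2 CPM per kilobase) in LN-229, -2.95 and -2.49 in T98G, and -2.83 and -1.95 in U251. SSR1 was the only gene of the 36 that was not lower in T98G as deposited. SSR3 was lower in all 3 lines as deposited, at -0.02 (with overlapping intervals), -0.44 and -0.24, with U251 at 0.03 after rescaling.

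Of the signal peptidase, SPCS1 was lower in all 3 lines (-0.19, -0.41 and -0.56), also after rescaling, with a mean change of -0.39 (SE 0.14, limma adjusted p = 0.136), and its reads cannot be told apart from those of NEK4 over much of its length. SPCS2 changed by -0.13, -0.19 and 0.35, of which T98G turned to 0.03 after rescaling. SPCS3, an accessory subunit, changed by at most 0.11 in either direction as deposited. SEC11A, a catalytic subunit, changed by 0.22, -0.07 and -0.28, of which T98G turned to 0.15 after rescaling.

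**Figure D4:**
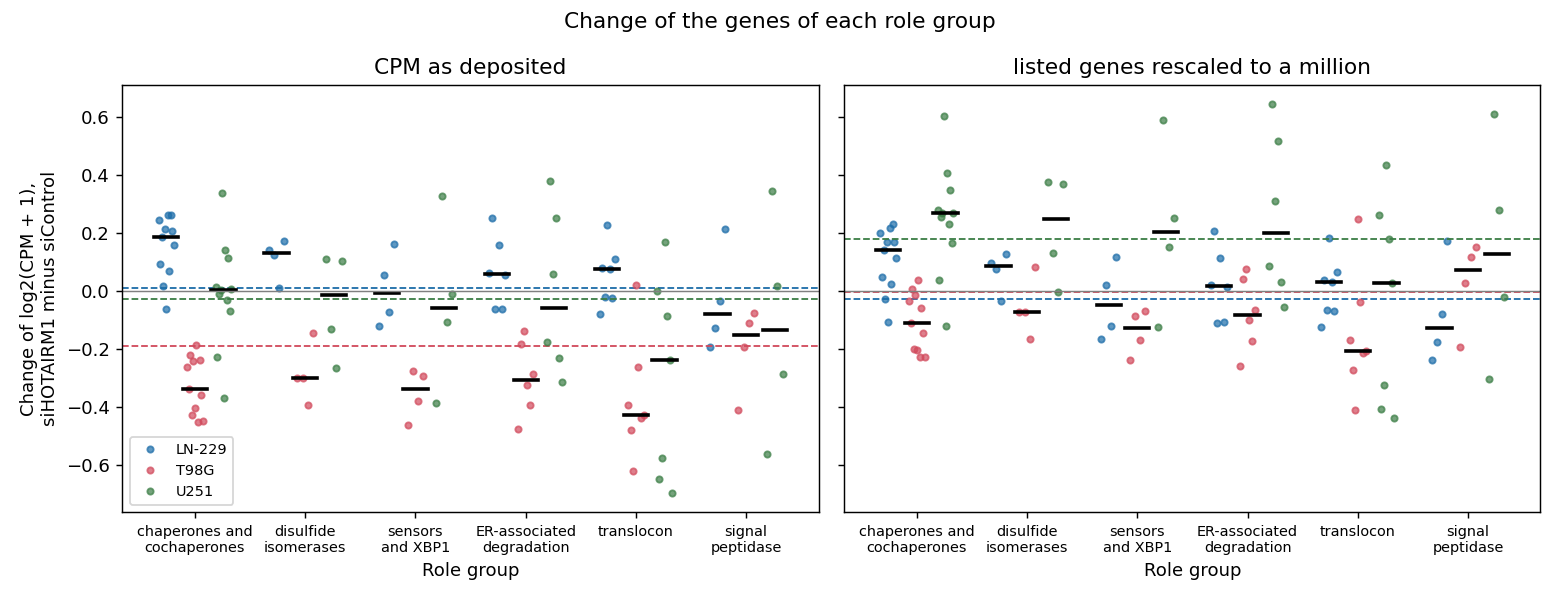
Change of log2(CPM + 1), siHOTAIRM1 minus siControl, of each gene (points) by role group and cell line, as deposited (left) and with the listed genes rescaled to the same total (right). Black bars are group medians and dashed lines the medians of all genes tested; in U251 the translocon median is -0.24 on the left and 0.03 on the right.

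The chaperones and isomerases (15 genes) and the translocon (7 genes) were set beside each other within a library, where the scaling cancels. The difference of their mean log2 CPM per kilobase was 0.52 and 0.61 (siControl and siHOTAIRM1) in LN-229, 0.26 and 0.32 in T98G, and -0.49 and -0.20 in U251. The siHOTAIRM1 value was higher in each of the 3 cell lines, by 0.09, 0.06 and 0.29, and U251 was the line in which the translocon was the higher of the 2 groups. In T98G and U251 this rests on the 3 shortest subunits, SEC61B, SEC61G and SSR4. Against these 3 the changes were 0.08, 0.21 and 0.65, and against the other 4 subunits 0.09, -0.05 and 0.02, a split made after the values were seen. Against the 3 sensors, the same 15 genes stood at 4.07 and 4.26 in LN-229, 4.08 and 4.16 in T98G, and 3.43 and 3.46 in U251. These differences, of 0.19, 0.07 and 0.02, were also all positive and small beside the difference between U251 and the other lines. Against the signal peptidase, the changes were 0.18, -0.12 and 0.10 and did not share a direction. No test was made for these scores.

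Transcript length went with the change in U251. Across the 36 genes, Spearman's rho of transcript length and change was -0.20 (LN-229), 0.13 (T98G) and 0.35 (U251). Over 12247 genes tested with a length it was -0.03, 0.24 and 0.31, so the relation was not particular to the ER genes. Genes of one library share its depth and preparation and are not independent. The 7 genes with transcripts under 1200 bases, a limit chosen after the values were seen, had a median change of 0.11 (LN-229), -0.43 (T98G) and -0.28 (U251), and the other 29 had 0.06, -0.30 and -0.01. The shortest 3, SEC61G (425 bases), SEC61B (564) and SSR4 (608), were the 3 with the lowest changes in U251. The part of length in the low values of these subunits was not tested.

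**Figure D5:**
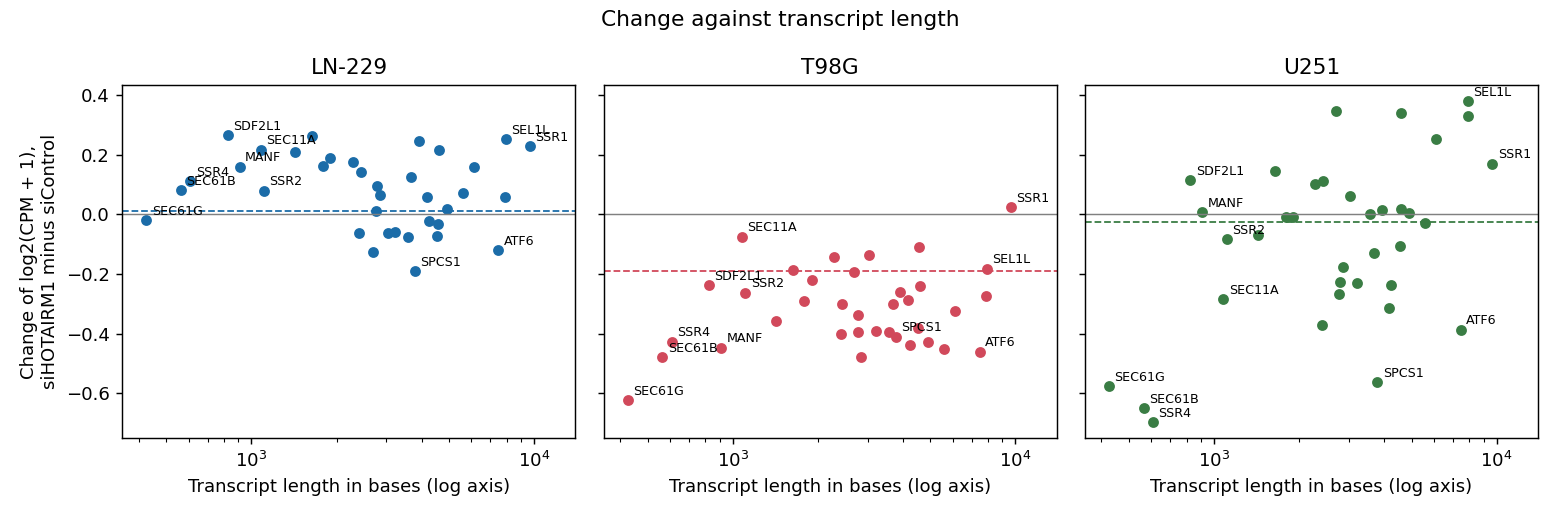
Change of log2(CPM + 1), siHOTAIRM1 minus siControl, of the 36 genes against the length of the transcript (log axis) in each cell line, with 11 genes named. Dashed lines are the medians of all genes tested; SEC61G, SEC61B and SSR4 lie lowest in U251, and near or above 0 in LN-229.

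The 10 genes with an ERSE or ERSE-II match printed above were all higher in siHOTAIRM1 in LN-229 (median change 0.18), all lower in T98G (-0.28) and split 5 to 5 in U251 (-0.0029). Of the 23 genes with a window and neither match, 14 were higher in LN-229, 22 were lower in T98G and 13 were lower in U251, with medians of 0.06, -0.32 and -0.03. In T98G 79.3% of all genes tested were lower, so a fall there does not set the 10 apart. After rescaling, 9 of the 10 were higher in LN-229 (all but CANX, at -0.03), 2 in T98G (CALR and PDIA6) and all 10 in U251, with medians of 0.14, -0.06 and 0.26 (without RN7SL, 9, 1 and 9 were higher). The 23 others then had medians of 0.02, -0.10 and 0.23, so the split in U251 depends on the scaling. Most of the 10 are chaperones, so the match and the role cannot be told apart in this list.

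Other genes of the same pathways, 125 in 7 lists of which 121 were tested, gave 1 gene past the threshold (0.83%, against 2.0% of all genes tested), in the lower direction, and 0 in the higher. At an unadjusted p under 0.05 there were 23 (19.0%, against 18.3%), of which 21 were lower (17.4%, against 14.2%) and 2 higher (1.65%, against 4.19%). Their median mean change was -0.14, beside -0.07 for all genes tested. The gene past the threshold was ERLEC1, a lectin of ER-associated degradation, at 38.2 and 33.0 CPM in LN-229, 28.5 and 17.7 CPM in T98G, and 60.4 and 35.95 CPM in U251. It was lower in siHOTAIRM1 in each line, with a mean change of -0.53 (SE 0.15, limma adjusted p = 0.0458), a call that was lost under median centring (-0.45, adjusted p = 0.151), under rescaling (-0.39, 0.244) and without T98G (-0.47, 0.581) or U251 (-0.43, 0.501). Its direction was the same in each, and the adjusted p ran from 0.0137 to 1 over the alternatives.

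Of the oligosaccharyltransferase, which adds glycans to entering proteins, 6 of 12 genes were lower at an unadjusted p under 0.05 (50%, against 14.2% of all genes tested). None passed after adjustment, and the list's median mean change was -0.29, beside -0.07 for all genes. By line the median was -0.03 (LN-229), -0.35 (T98G) and -0.33 (U251) as deposited, beside 0.01, -0.19 and -0.03 for all genes. The 6 genes were DAD1, OSTC, OST4, TMEM258, MAGT1 and TUSC3. After rescaling, these and RPN1 were lower in U251, and the rest of the list was higher there. The part of transcript length in these changes was not tested. The list's largest change was that of TUSC3, -0.43 (SE 0.14, limma adjusted p = 0.0978). Of 16 other oxidoreductases, 5 were lower at an unadjusted p under 0.05 (31.2%, against the same 14.2%), none after adjustment. The median was -0.20, and by line -0.03 (LN-229), -0.38 (T98G) and -0.15 (U251). TXNDC12 stood at -0.45 (SE 0.15, limma adjusted p = 0.0977). For both genes the direction was the same in all 3 lines, also after rescaling.

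Among 23 other genes of translocation and insertion, the largest change was that of SEC11C, the second catalytic subunit of signal peptidase, -0.45 (limma adjusted p = 0.112), with 0.03 (LN-229), -0.54 (T98G) and -0.84 (U251). VCP, the ATPase that pulls proteins out of the ER membrane, was at 144 and 212 CPM in LN-229, 183 and 194 CPM in T98G, and 307 and 533 CPM in U251. It was higher in siHOTAIRM1 in each line, also after rescaling, with a mean change of 0.48 (SE 0.18, limma adjusted p = 0.134). The median of its list of 18 tested genes of ER-associated degradation was -0.06. At an unadjusted p under 0.05, 2 of the 18 were lower (11.1%) and 2 higher (11.1%), against 14.2% and 4.19% of all genes tested. Of the 23 genes of translocation and insertion, 4 were lower (17.4%) and 0 higher. None of either list passed after adjustment.

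Of 19 other factors of the unfolded protein response tested, CREB3, a membrane-bound transcription factor, had the largest change, -0.50 (SE 0.14, limma adjusted p = 0.0591, lower in 3 of 3 cell lines). The largest in the list of 19 other folding factors tested was that of SERP1, a stress-associated protein of the translocon, at -0.29 (limma adjusted p = 0.294). The lists' medians were -0.09 and -0.06. At an unadjusted p under 0.05, 2 of the unfolded protein response factors (10.5%) and 0 of the folding factors were lower. In the list of 14 glycan-trimming genes and lectins, which holds ERLEC1, 2 were lower at an unadjusted p under 0.05 (14.3%, against 14.2% of all genes tested) and the median was -0.13, beside -0.07 for all genes.

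ATF4 and DDIT3, which act downstream of PERK and were picked from the list after their values were seen, were not past the threshold (limma adjusted p = 0.314 and 0.332). DDIT3 was at 3.78 and 4.27 CPM in LN-229, 15.8 and 8.48 CPM in T98G, and 12.1 and 10.6 CPM in U251. It was low in both libraries of LN-229, lower in siHOTAIRM1 in T98G, and lower in U251 only as deposited.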

How the data were processed

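The authors prepared libraries with the TruSeq RNA v2 kit, trimmed the reads, aligned them to hg38 with STAR 2.4.1d and, for the rest, Bowtie 2, quantified them on Ensembl transcripts by Expectation-Maximization in Partek Flow, and deposited CPM values of 59074 genes, raised by 0.0001 each. The 36 genes and the lists were chosen with earlier results of these data known. The depth was read from the spacing of low values. Of values under 20 reads, 88.0 to 89.3% were whole within 0.02 reads, so count tests were left out. A level of 3 reads was 0.0289 to 0.0574 CPM. Wilson intervals (95%) cover counting error only.

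Genes averaging 1 CPM or more were tested on log2(CPM + 1) with limma 3.58.1 (R 4.3.3) and a mean-variance trend. The cell line was the block, and p-values were adjusted over all of these genes (Benjamini-Hochberg). Libraries of the same cell line deviated together (r = 0.948 to 0.967), and those of different lines did not (r = -0.50 to -0.47). Lines were compared in a fit of line and condition. The fits were tested on simulated data.

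Values in every library are given for the sensors, XBP1, HSPA5, HSP90B1, CALR, P4HB, SEC61A1, SEC61B and SEC61G, for genes past the threshold, and for those with line means at least 1 apart. Those of VCP and DDIT3 are also given, picked after the values were seen. Of each list, the gene with the largest mean change is named. Transcript lengths are those of GENCODE v44 canonical transcripts, matched by symbol. Promoter windows are from RefSeq (GRCh38.p14). Protein sequences were not analysed here. The alternatives were a pseudocount of 0.1, no filter, rescaling, median centring, no block, a paired t-statistic and leaving out lines or libraries. Other steps used Python 3.11.15 (scipy 1.17.1, statsmodels 0.14.6, numpy 2.4.6, matplotlib 3.10.9, pandas 2.3.3).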

Additional observations from a re-analysis of the deposited data

Results flagged for a closer look

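Changes of opposite direction in a pair of cell lines, by at least 0.1 on the log2 scale as deposited, after rescaling and after median centring, were looked for among the 36 genes and the 6 role groups. With 1 library per line and condition, the difference between lines was not tested. The median of the chaperones and cochaperones was 0.19 in LN-229 and -0.34 in T98G, 0.53 apart, and after rescaling 0.14 and -0.11. CRELD2 stood at 0.21 in LN-229 and -0.36 in T98G, 0.57 apart. MANF, a secreted ER protein, stood at 0.16 and -0.45, 0.61 apart. SPCS2, whose reads are shared with a pseudogene, stood at -0.13 in LN-229 and 0.35 in U251, 0.47 apart.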

How the results depend on the processing

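The count of 0 genes past the threshold with the knock-down was the same under all 9 alternatives named above, no replicate block (0) and each cell line left out (0) included, and also without the 4 genes that share reads, an alternative added after the data were seen. At an unadjusted p under 0.05 the count was 0 to 5. Of all genes tested, 683 passed with a pseudocount of 0.1, 41 with median centring, 25 with rescaling, 270 without LN-229, 0 without T98G, 149 without U251, and 0 with no replicate block, no filter or the paired t-statistic. The count of genes differing between lines was 26 to 30 under the pseudocount, rescaling and centring, 18 to 25 with a library left out, and 0 with no filter, a fit that holds 23091 genes with the same value in all 6 libraries.

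Of 78 values of role group medians under the alternatives, 56 moved by less than the SD over the 3 cell lines. These include the chaperones and cochaperones in U251, whose median went from 0.0025 to 0.27 with rescaling. With rescaling, the median became -0.072 in T98G and 0.25 in U251 for disulfide isomerases, -0.13 and 0.20 for the sensors and XBP1, -0.083 and 0.20 for ER-associated degradation, 0.028 in U251 for the translocon, and -0.13, 0.073 and 0.13 in LN-229, T98G and U251 for the signal peptidase. With median centring it became -0.14 for the sensors and XBP1 and -0.11 for ER-associated degradation in T98G, and -0.12, 0.046 and -0.056 for the signal peptidase in the 3 lines. With rescaling without RN7SL, added after the data were seen, it became -0.14 in T98G and 0.13 in U251 for the sensors and XBP1, -0.095 in T98G for ER-associated degradation, and 0.061 in T98G and 0.052 in U251 for the signal peptidase. Without the genes that share reads, the signal peptidase stood at 0.091 in LN-229 and -0.092 in T98G. The cause was not tested. Of 396 values of the 44 named genes with an adjusted p, 380 kept their side of the threshold and, where called, their direction. The calls of HOTAIRM1 and ERLEC1 were lost under 7 alternatives each, with adjusted p-values of 0.98 with no filter, 1 with no replicate block and 0.637 by the paired t-statistic for both, and with a pseudocount of 0.1 SEC11C and CREB3 passed the threshold. PDIA3 and SPCS2 stood at -0.12 and -0.07 when summed with their pseudogenes.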
